A study of Homo sapiens with 36 samples.

Results

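MG132, a peptide aldehyde that blocks the proteasome, was added to SHP1705 in MDA-MB-231 cells, and the comparison described here sets this combination against SHP1705 alone after 8 h. It rests on 6 of the 36 polyA RNA-seq libraries of the series, chosen by their treatment labels: 3 libraries of cells given SHP1705 at 10 µM with MG132 at 100 nM, and 3 libraries of cells given SHP1705 at 10 µM. The other 6 libraries of the same set, 3 of MG132 at 100 nM and 3 of DMSO, served to read the SHP1705 effect with and without the inhibitor. MDA-MB-231 is a human triple-negative breast cancer line, it was the only line used, and the drugs came from stocks in DMSO. The question is which effects of SHP1705 on transcripts remain, disappear or turn around once the proteasome is inhibited as well.

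Cryptochromes CRY1 and CRY2 are the repressor proteins of the circadian clock. They bind the activator BMAL1:CLOCK and silence genes with E-box elements, among them the period genes, the REV-ERB genes and the cryptochrome genes themselves. The labels call SHP1705 a stabilizer of CRY2. Cryptochromes are normally tagged with ubiquitin and removed by the proteasome, and a blocked proteasome lets misfolded protein build up, to which cells are known to answer with heat shock chaperones, the ATF4 and NRF2 programmes and new proteasome subunits.

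Below, means of CPM are followed by the SD of 3 libraries and log2 fold changes by their standard error. The 12 libraries ranged in depth between 34191153 and 39251609 counts. The scaling factors stood apart in the combination, at 0.845 to 0.856 against 1.05 to 1.07 elsewhere, and HSPA1B alone took 4.47% to 4.61% of all counts there. The label of the line was checked by 9 markers of MDA-MB-231 such as VIM and CD44, whose levels in CPM (counts scaled by the effective library size) summed to 7807 to 7956 in the combination and 7676 to 7858 CPM in SHP1705. The 10 luminal breast markers that this line is known to lack or hold at low level summed to 476 to 505 CPM in the combination. In SHP1705 they summed to 729 to 753 CPM. Only PGR, the progesterone receptor gene, was at 3 or fewer counts in all combination libraries, and only PGR and FOXA1 in all SHP1705 libraries. KRT19 and ERBB2, which were well above that, are given under the other observations. POSTN, the gene of the matrix protein periostin, varied between libraries that share a label. It had 98.3, 222 and 242 CPM in the 3 combination libraries and 0.267, 28.2 and 29.4 CPM in SHP1705. In MG132 it had 33.6, 0.161 and 173 CPM, and in DMSO 0.255, 0.11 and 0.111 CPM. The 3 genes of the CDKN2A locus, which MDA-MB-231 is known to lack, summed to 4.03, 9.65 and 10.5 CPM in the combination, 0.194, 1.29 and 0.932 CPM in SHP1705, 0.779, 0.321 and 6.88 CPM in MG132, and 0.0829 to 0.193 CPM in DMSO. Without POSTN the 15 fibroblast markers summed to 58.9 to 83.2 CPM in the combination and 53.2 to 59.0 CPM in SHP1705. Only THY1 was at 3 or fewer counts in all combination libraries, and only FAP, THY1 and TWIST1 in all SHP1705 libraries. Of the 12 tested, with POSTN, 5 were called higher in the combination than in SHP1705 and 1 lower. Over all genes, 31.0% were called higher and 30.0% lower. In such bulk samples, fewer cells of a type and less RNA per cell cannot be told apart. POSTN and the CDKN2A locus sum were higher in each combination library than in each SHP1705 library, so they cannot be separated from that comparison. The part of these transcripts in the results below was not tested beyond leaving libraries out. Leaving out the 4 libraries outside the combination that had over 100 POSTN counts set a lone SHP1705 library against 3 combination libraries, all with POSTN. Such a fit cannot separate these transcripts from the comparison. In it, the median log2 fold change of the 3 CDKN2A locus genes over SHP1705 was 5.85, against 3.46 with all libraries.

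Adding MG132 to SHP1705 changed the level of most measured genes. At a Benjamini-Hochberg adjusted p under 0.05 in edgeR (quasi-likelihood), 10121 of 16591 genes (61.0%) were called, 5143 higher (31.0%) and 4978 lower (30.0%) in the combination. Of these, 1965 differed by 2-fold or more, 1071 of them higher and 894 lower. The 3 libraries of one group did not overlap with those of the other in 10706 genes (64.5%). Scaling by library size alone leaves out the scaling factors given above. Why these stood apart in the combination was not tested. Library size alone moved the median log2 fold change of all genes from 0.0012 to -0.32 and gave 2288 higher and 8891 lower genes. Directions below therefore hold relative to the bulk of genes, since these counts hold no measure of total RNA. MG132 alone differed from DMSO in 0 of 16591 genes (0.0%) by edgeR, in 75 by DESeq2 and in 67 by edgeR without MG132 replicate 2, and 1574 had an unadjusted p under 0.05. The combination differed from MG132 in 9487 genes (57.2%) and from DMSO in 9763 (58.8%, with 29.2% higher and 29.7% lower). The effect of MG132 differed with and without SHP1705 for 8108 genes (48.9%), 4100 with a positive (24.7%) and 4008 with a negative interaction (24.2%). Whether the labelled dose reached the cells in the same way in both MG132 groups was not measured, so a difference of dose and a dependence on SHP1705 cannot be told apart.

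**Figure D1:**
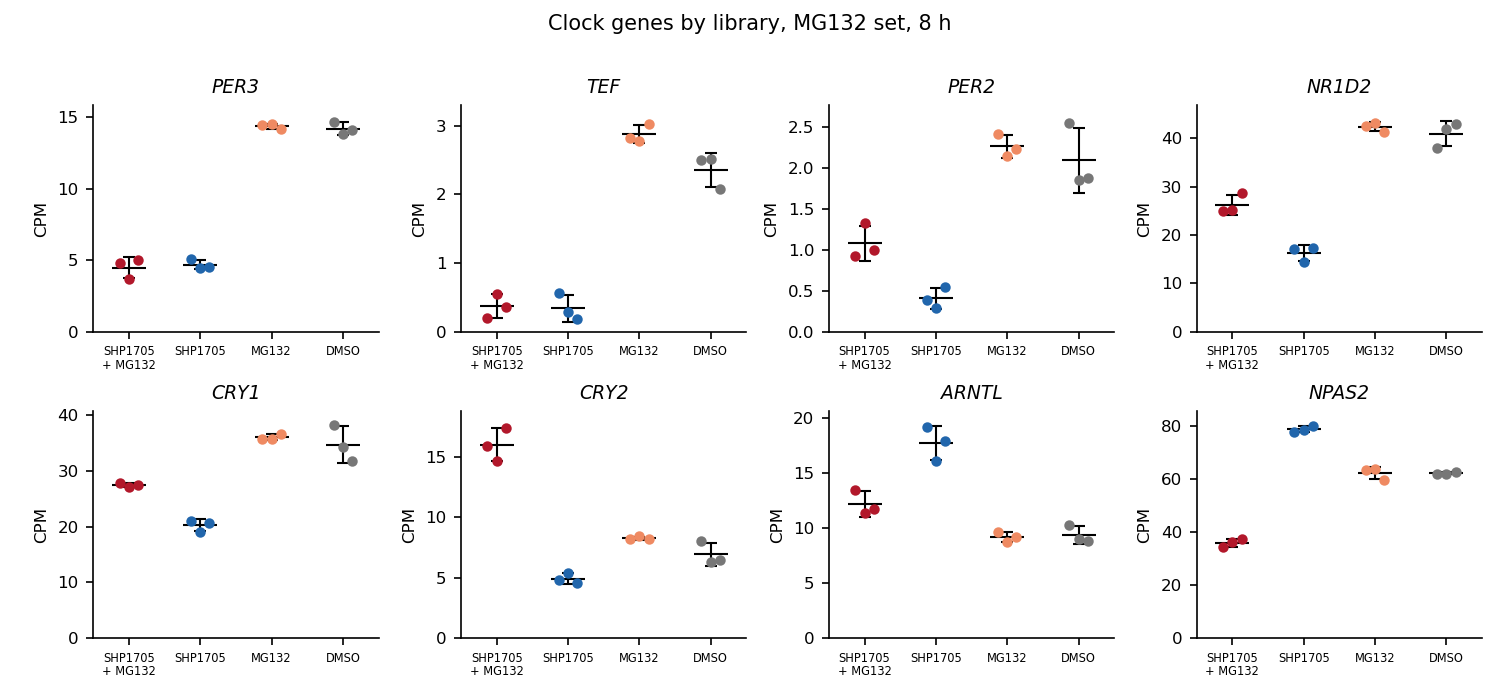
Levels of 8 clock genes in each library of the MG132 set, in CPM on a linear axis from 0; points are libraries, bars the mean and SD of 3. The combination and SHP1705 overlap for PER3 and TEF, NR1D2 and CRY1 lie between SHP1705 and DMSO, and CRY2 and NPAS2 lie on the far side of DMSO.

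In the combination, some clock genes stayed low, some lay between SHP1705 and DMSO and some lay past the DMSO level. For clock genes too, a stress response of the combination and a change of the SHP1705 effect cannot be told apart. Of 13 E-box clock genes listed, all except HLF passed the filter on low counts, and of these 12, 10 were lower after SHP1705 than in DMSO (background 4.08% of genes lower), with a median log2 fold change of -1.32. When MG132 was added, 5 of the 12 rose (background 31.0%) and 1 fell (background 30.0%) against SHP1705, with a median of 0.41 (4 and 2, with a median of 0.086, when scaled by library size alone). Both comparisons use the SHP1705 libraries, so their values only stand side by side. Between the combination and MG132, a comparison that shares no library with SHP1705 against DMSO, 9 were lower (background 28.9%) and 2 were higher (background 28.2%), with a median of -0.88 (9 and 1, with a median of -1.19, with library size alone).

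PER3, a period gene of the clock, had 4.78, 3.68 and 4.99 CPM in the combination, 5.07, 4.46 and 4.53 CPM in SHP1705, 14.4, 14.5 and 14.2 CPM in MG132 and 14.7, 13.8 and 14.1 CPM in DMSO. The combination overlapped with SHP1705, and both lay below every library without SHP1705. The log2 fold change of the combination over SHP1705 was -0.063 ± 0.11 (SE, edgeR adjusted p = 0.631), beside -1.60 ± 0.092 for SHP1705 over DMSO and -1.68 ± 0.10 for the combination over MG132. TEF, a transcription factor of clock output, had 0.205, 0.549 and 0.361 CPM in the combination, 0.558, 0.289 and 0.181 CPM in SHP1705, 2.82, 2.78 and 3.03 CPM in MG132 and 2.5, 2.51 and 2.07 CPM in DMSO. It too stayed low, with 0.11 ± 0.40 for the combination over SHP1705 (edgeR adjusted p = 0.829) and -2.93 ± 0.32 over MG132. NR1D1, which encodes the repressor REV-ERB alpha, was at 0.816 ± 0.194 CPM in the combination and 0.83 ± 0.177 CPM in SHP1705, against 2.87 CPM in DMSO, and its interaction was -0.06 ± 0.32 (edgeR adjusted p = 0.896). DBP, a relative of TEF, and PER1 were likewise not called between the combination and SHP1705 (-0.46 ± 0.43 and 0.38 ± 0.21 on the log2 scale), while both were lower in the combination than in MG132 (-2.01 ± 0.38 and -0.57 ± 0.20).

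PER2, NR1D2 and CRY1 lay between SHP1705 and DMSO in the combination. NR1D2, which encodes REV-ERB beta and lies on chromosome 3 from 23945286 to 23980617 of GRCh38.p14, had 25, 25.2 and 28.7 CPM in the combination, 17.1, 14.5 and 17.3 CPM in SHP1705, 42.7, 43.2 and 41.4 CPM in MG132 and 38, 42 and 43 CPM in DMSO. The 4 groups do not overlap except MG132 and DMSO. Its log2 fold change was 0.69 ± 0.072 over SHP1705 (edgeR adjusted p = 7.08e-08) and -0.69 ± 0.066 over MG132. PER2, a period gene of low abundance here, had 0.923, 1.32 and 0.992 CPM in the combination and 0.388, 0.289 and 0.544 CPM in SHP1705, against 2.41, 2.14 and 2.24 CPM in MG132 and 2.55, 1.85 and 1.88 CPM in DMSO, a log2 fold change over SHP1705 of 1.40 ± 0.29 (edgeR adjusted p = 0.000294). CRY1 averaged 27.5 ± 0.343 CPM in the combination and 20.3 ± 1.04 CPM in SHP1705, against 36.1 ± 0.566 CPM in MG132 and 34.8 ± 3.25 CPM in DMSO (SD, n = 3 each). The call of CRY1 over SHP1705 (0.44 ± 0.062, edgeR adjusted p = 3.77e-06) was lost when libraries were scaled by size alone (0.12, adjusted p = 0.0991).

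CRY2 and BHLHE40 went past the DMSO level. CRY2, the cryptochrome gene on chromosome 11 from 45847118 to 45883244, had 15.9, 14.7 and 17.4 CPM in the combination, 4.83, 5.4 and 4.53 CPM in SHP1705, 8.17, 8.41 and 8.22 CPM in MG132 and 8.02, 6.29 and 6.47 CPM in DMSO. Each combination library was above each library of the other 3 groups, and each SHP1705 library was below them. The log2 fold change was 1.70 ± 0.10 over SHP1705 (edgeR adjusted p = 1.81e-11), 0.95 ± 0.10 over MG132 and 1.21 ± 0.10 over DMSO, with an interaction of 1.45 ± 0.14 (edgeR adjusted p = 6.45e-08). BHLHE40, an E-box repressor that also responds to stress and hypoxia, averaged 77.1 ± 1.64 CPM in the combination and 48.3 ± 2.24 CPM in SHP1705, against 60.2 ± 3.29 CPM in MG132 and 57.5 ± 4.04 CPM in DMSO. It was higher in the combination than in MG132 (0.36 ± 0.051), a call lost under scaling by library size alone (0.044, adjusted p = 0.461). Its paralogue BHLHE41 went the other way, at 1.57 ± 0.108 CPM in the combination and 3.09 ± 0.276 CPM in SHP1705, a log2 fold change of -0.98 ± 0.15 (edgeR adjusted p = 1.55e-05), although SHP1705 alone had not moved it past the threshold (-0.42 ± 0.13, edgeR adjusted p = 0.0662). CIART, a repressor of the activator, was below 1 CPM in every library and not called (0.85 ± 0.54).

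The E-box is read here as CACGTG, which is the same on both strands, in the RefSeq window of 250 bases before to 50 after the start of a gene. It occurs in 7.43% of 27305 promoters of that length and in 5 of the 13 E-box clock genes, among them TEF, which stayed low, and BHLHE40, which rose. A match is a description of the letters, not a shown binding site. The 250 bases before each start are given below 5′ to 3′ on GRCh38.p14, plus strand, to show both windows beside their opposite results, with the E-box in capitals.
TEF (chr22:41367205-41367454): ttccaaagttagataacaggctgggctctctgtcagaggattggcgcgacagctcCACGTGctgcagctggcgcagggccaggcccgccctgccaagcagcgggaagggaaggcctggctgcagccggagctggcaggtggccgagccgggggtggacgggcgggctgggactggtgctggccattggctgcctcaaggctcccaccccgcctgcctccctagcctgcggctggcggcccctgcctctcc
BHLHE40 (chr3:4979187-4979436): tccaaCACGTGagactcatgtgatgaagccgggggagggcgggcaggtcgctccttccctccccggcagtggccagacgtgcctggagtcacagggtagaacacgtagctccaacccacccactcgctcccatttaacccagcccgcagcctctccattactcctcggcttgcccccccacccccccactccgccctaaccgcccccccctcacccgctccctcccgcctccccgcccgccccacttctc
The E-box starts 195 bases before the start of TEF and 245 bases before that of BHLHE40.

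Clock genes under the ROR and REV-ERB receptors, which REV-ERB represses, had no common direction. Of the 6 measured, 3 were higher after SHP1705 than in DMSO (background 3.45%) and 0 lower. With MG132 added 2 rose (background 31.0%) and 4 fell (background 30.0%) against SHP1705, with a median of -0.42 (0 and 5, with a median of -0.75, when scaled by library size alone). In the combination over MG132, which shares no library with SHP1705 over DMSO, 2 were higher and 3 lower, with a median of -0.016. ARNTL, which encodes BMAL1, had 13.5, 11.3 and 11.7 CPM in the combination, 19.1, 16 and 17.9 CPM in SHP1705, 9.63, 8.7 and 9.16 CPM in MG132 and 10.3, 8.95 and 8.85 CPM in DMSO. The combination thus lay between SHP1705 and the libraries without SHP1705, with a log2 fold change of -0.54 ± 0.085 over SHP1705 (edgeR adjusted p = 1.63e-05) and 0.40 ± 0.09 over MG132. Scaling by library size alone took the last call away (0.091, adjusted p = 0.403). NPAS2, a CLOCK paralogue on chromosome 2 from 100818723 to 100996829, had 34.5, 36.1 and 37.5 CPM in the combination, 78, 78.6 and 80.1 CPM in SHP1705, 63.5, 63.8 and 59.9 CPM in MG132 and 62.1, 62.1 and 62.8 CPM in DMSO. SHP1705 alone raised it and the combination held it below all other groups (-0.79 ± 0.042 over DMSO), with -1.13 ± 0.041 over SHP1705 (edgeR adjusted p = 1.22e-14) and an interaction of -1.13 ± 0.057. NFIL3, a repressor that opposes DBP and TEF, averaged 17.5 ± 1.2 CPM in the combination and 26.8 ± 1.9 CPM in SHP1705, against 19.9 ± 1.92 CPM in MG132 and 19.7 ± 0.282 CPM in DMSO. It was lower in the combination than in MG132 (-0.18 ± 0.074, edgeR adjusted p = 0.0467), whereas against DMSO the threshold was missed (-0.16 ± 0.074, edgeR adjusted p = 0.0661). CLOCK fell by a smaller step (-0.31 ± 0.042, edgeR adjusted p = 2.75e-06). RORA was at 0.83 ± 0.29 (edgeR adjusted p = 0.0197) and was not called without SHP1705 replicate 1 (0.64, adjusted p = 0.0931) or 3 (0.77, adjusted p = 0.057), and ARNTL2 was at 0.16 ± 0.038, which turned to -0.16 with library size alone.

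Genes that mark or remove cryptochrome and period proteins were a little higher. Of 11 measured genes of that turnover, 8 rose (background 31.0%) and 1 fell (background 30.0%) against SHP1705 with a median of 0.23, and 4 rose and 6 fell when scaled by library size alone. SHP1705 alone had moved 0 of them past the threshold. USP7, a deubiquitinase of cryptochromes, averaged 162 ± 5.3 CPM in the combination and 108 ± 1.2 CPM in SHP1705 (a log2 fold change of 0.59 ± 0.036, edgeR adjusted p = 3.17e-11). FBXW11, an F-box protein that targets period proteins, averaged 145 ± 1.97 and 107 ± 1.42 CPM in the combination and SHP1705 (0.43 ± 0.03). Protein levels were not measured.

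**Figure D2:**
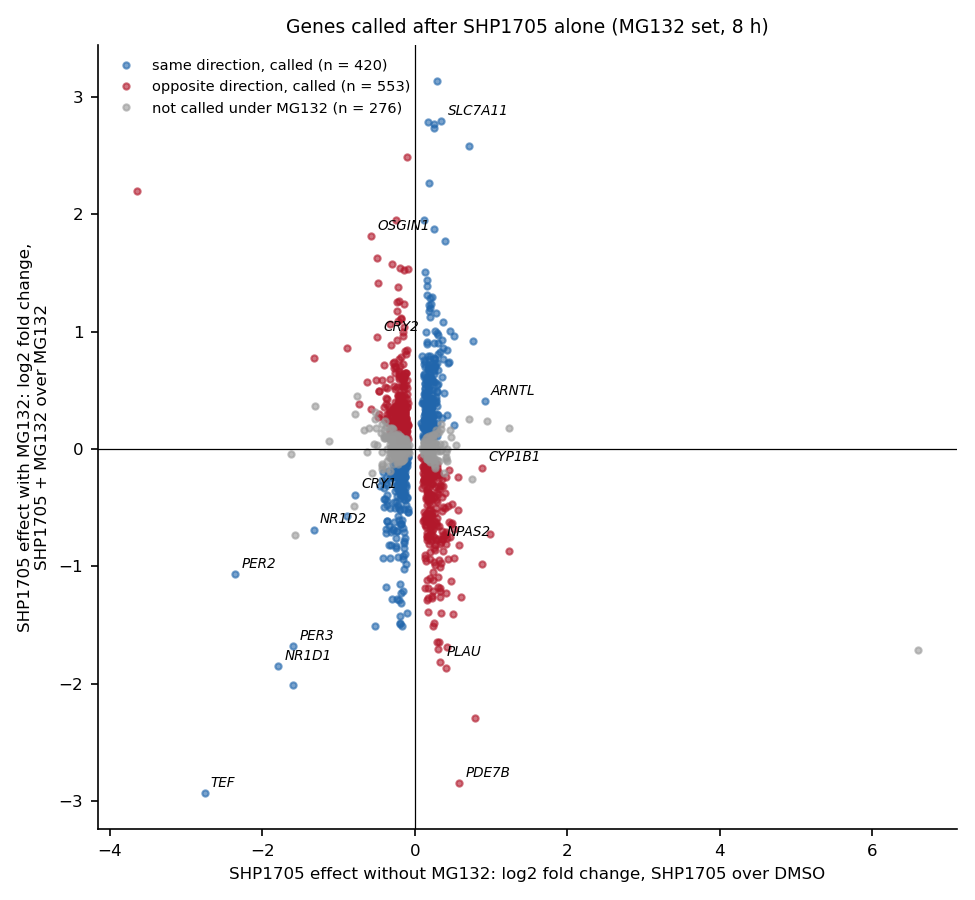
The 1249 genes called after SHP1705 alone: log2 fold change of SHP1705 over DMSO on the x axis, log2 fold change of the combination over MG132 on the y axis, each point a gene. Blue points (n = 420) were called in the same direction with MG132, red points (n = 553) in the opposite direction and grey points (n = 276) were not called.

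Beyond the clock, the SHP1705 effect was followed through every gene it touched. SHP1705 against DMSO called 1249 genes (7.53%), 572 higher and 677 lower. Only 780 were called without SHP1705 replicate 1, 689 without replicate 2, 783 without DMSO replicate 1, 619 without replicate 2 and 825 without replicate 3, and 150 without the 4 libraries with over 100 POSTN counts. Of the 572 that were higher, 238 (41.6%) were also higher in the combination than in MG132, 229 (40.0%) were lower there and 105 (18.4%) were not called. Over all genes tested, 28.2% were higher, 28.9% lower and 42.8% not called in that comparison. Of the 677 that were lower, 182 (26.9%) were lower again, 324 (47.9%) were higher and 171 (25.3%) were not called. Kept and turned around name directions only. In the combination over MG132, a stress response of the combination and a change of the SHP1705 effect cannot be told apart. The split depends on the scaling: with library size alone, SHP1705-raised genes divided into 175 kept, 529 turned around and 129 not called, and SHP1705-lowered genes into 322 kept, 62 turned around and 129 not called. Of the raised genes, all 229 that were lower in the combination than in MG132 kept that class with library size alone. So did 121 of the 238 raised in both and 10 of the 105 not called. Of the lowered genes, 140 of the 182 lowered in both, 62 of the 324 that were then higher and 20 of the 171 not called did so. Library size alone moved the median of all genes in the combination over MG132 from -0.0035 to -0.317. This common shift favours genes that were lower there, so their agreement is no test of the class. Among the 12 genes that SHP1705 lowered by 2-fold or more, 6 were lower again under MG132, all of them clock genes (PER2, PER3, TEF, DBP, NR1D1 and NR1D2), 2 were higher (SLC44A4 and TBX19) and 4 were not called. Of the 3 raised by 2-fold or more 0 were raised again: LY6G5C was lower, and KIR3DX1 and the BH3-only gene BMF were not called. These genes other than the clock genes averaged under 10 CPM and were named after their values were seen. Among smaller effects, 182 of 386 genes raised by under 0.25 on the log2 scale were kept and 133 turned around, and of 21 raised by 0.5 to 1, 5 were kept and 12 turned around. Of 487 genes lowered by under 0.25, 129 were kept and 252 turned around, and of 20 lowered by 0.5 to 1, 3 were kept and 6 turned around. Whether the classes differ with the size of the effect was not tested.

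SHP1705-sensitive genes were also chosen in other libraries and then read here. In the carfilzomib set at 24 h, whose 12 libraries are separate, SHP1705 against DMSO called 722 of 16183 genes (4.46%), 316 higher (1.95%) and 406 lower (2.51%). The 53 that were higher there by at least 0.5 on the log2 scale were then read in the MG132 set. In the combination over MG132, 24 (45.3%) were lower and 10 (18.9%) higher, against 28.9% lower and 28.2% higher over all genes. In the combination over SHP1705, 36 (67.9%) were lower and 7 (13.2%) higher, with a median of -0.49 and backgrounds of 30.0% lower and 31.0% higher (41 lower and 4 higher with library size alone). Of the 103 that were lower there by at least 0.5, 46 (44.7%) were lower again in the combination than in MG132 and 19 (18.4%) were higher. Of the lowered genes of the MG132 set itself, 47.9% were higher in that comparison (12.1% with library size alone), but these were taken at any size. Of 20 genes lowered there by 0.5 to 1, 6 were higher and 3 lower. Of 12 lowered there by 2-fold or more, 2 were higher and 6 lower. Over SHP1705, 31 of the 103 (30.1%) were lower and 30 (29.1%) higher in the combination, with a median of 0.016 (52 lower and 17 higher, with a median of -0.31, with library size alone). Without the cut on size, 167 of 406 (41.1%) were lower and 133 (32.8%) higher over SHP1705. In the 24 h set the count of SHP1705 calls was 469 without SHP1705 replicate 2, 439 without replicate 3, 419 without DMSO replicate 1 and 427 without replicate 2.

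**Figure D3:**
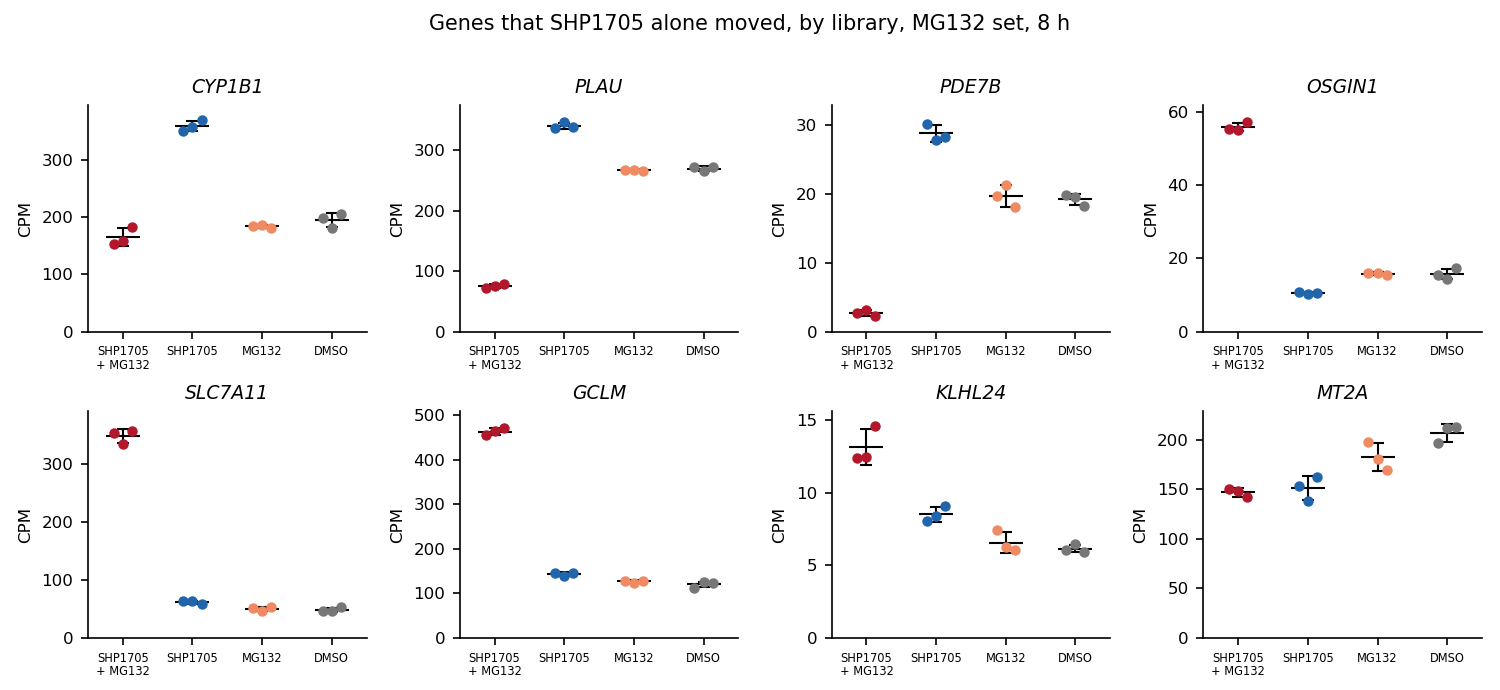
Levels of 8 genes that SHP1705 alone moved, in each library of the MG132 set, in CPM on a linear axis from 0; points are libraries, bars the mean and SD of 3. The combination overlaps with DMSO for CYP1B1, lies below it for PLAU and PDE7B and above it for OSGIN1, lies above SHP1705 for SLC7A11, GCLM and KLHL24, and overlaps with SHP1705 for MT2A.

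In the combination CYP1B1, raised by SHP1705, was near the DMSO level. CYP1B1, a xenobiotic-metabolizing enzyme under the aryl hydrocarbon receptor, had 153, 159 and 183 CPM in the combination, 351, 357 and 369 CPM in SHP1705, 185, 187 and 181 CPM in MG132 and 199, 181 and 205 CPM in DMSO. The increase seen with SHP1705 was gone in each combination library (-1.12 ± 0.051 over SHP1705, edgeR adjusted p = 3.53e-13), and against MG132 the gene was slightly lower (-0.16 ± 0.052, edgeR adjusted p = 0.0126), as it was against DMSO (-0.24 ± 0.052). Another receptor target, TIPARP, stayed above MG132 (0.73 ± 0.055): it averaged 74.8 ± 5.25 CPM in the combination and 61.7 ± 0.686 CPM in SHP1705, against 45.2 CPM in MG132 and 45.7 CPM in DMSO. The smaller increases of the ubiquitin ligase gene RNF144A and the cytochrome gene CYP2S1 were not called against MG132 (0.038 ± 0.12 and 0.10 ± 0.13), although RNF144A was lower with library size alone (-0.28, adjusted p = 0.0442).

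Other genes that SHP1705 moved differed from MG132 in the opposite direction in the combination. For them too, a stress response of the combination and a reversed SHP1705 effect cannot be told apart. PLAU, the urokinase gene on chromosome 10 from 73908832 to 73917494, had 72.4, 75.8 and 78.6 CPM in the combination, 336, 346 and 338 CPM in SHP1705, 268, 268 and 265 CPM in MG132 and 272, 265 and 272 CPM in DMSO. SHP1705 alone raised it (0.34 ± 0.029) and the combination lowered it against both SHP1705 (-2.17 ± 0.032, edgeR adjusted p = 1.16e-20) and MG132 (-1.82 ± 0.032). PDE7B, a cyclic AMP phosphodiesterase on chromosome 6 from 135851701 to 136195574, had 2.77, 3.17 and 2.29 CPM in the combination, 30.2, 27.8 and 28.3 CPM in SHP1705, 19.6, 21.3 and 18.1 CPM in MG132 and 19.9, 19.5 and 18.3 CPM in DMSO. Its log2 fold change over SHP1705, -3.39 ± 0.095, was the lowest among called genes that averaged 5 CPM or more and did not overlap between the groups. OSGIN1, an oxidative stress growth inhibitor on chromosome 16 from 83953240 to 83966332, did the reverse, with 55.3, 55 and 57.1 CPM in the combination, 10.7, 10.4 and 10.7 CPM in SHP1705, 16.1, 16.1 and 15.4 CPM in MG132 and 15.6, 14.4 and 17.3 CPM in DMSO (2.40 ± 0.059 over SHP1705, edgeR adjusted p = 3.2e-17). The transcription factor ATOH8 (0.57 ± 0.069 for SHP1705 over DMSO and -0.52 ± 0.076 for the combination over MG132) and the membrane protein gene SHISA2 (0.57 ± 0.058 and -0.24 ± 0.063) were higher after SHP1705 and lower in the combination than in MG132. NFKBIZ, an atypical IkappaB protein, was lower after SHP1705 (-0.63 ± 0.13) and higher in the combination than in MG132 (0.57 ± 0.12), a call against MG132 that was lost with library size alone (0.26, adjusted p = 0.0771). The processed pseudogenes RPSAP54, RPS10P3 and EEF1A1P11 were also lower and then higher, and their counts cannot be told from those of their parent genes.

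For further genes the combination differed from MG132 in the direction of the SHP1705 effect. MG132 alone called 0 genes, so in this comparison a stress response of the combination and a kept SHP1705 effect cannot be told apart. SLC7A11, the cystine transporter on chromosome 4 from 138164097 to 138242349, had 353, 334 and 356 CPM in the combination, 63.4, 63 and 58.2 CPM in SHP1705, 51.6, 46.1 and 52.9 CPM in MG132 and 45.7, 46.9 and 52.5 CPM in DMSO. SHP1705 alone raised it by 0.35 ± 0.056, and the combination stood 2.50 ± 0.054 above SHP1705 (edgeR adjusted p = 4.17e-18). GCLM, a subunit of the glutathione-making ligase, averaged 462 ± 8.15 CPM in the combination and 143 ± 4.75 CPM in SHP1705, against 127 ± 2.26 CPM in MG132 and 120.1 ± 6.34 CPM in DMSO. The heme oxygenase HMOX1 (0.25 ± 0.065 for SHP1705 over DMSO, 2.58 ± 0.057 for the combination over SHP1705), the thioredoxin reductase TXNRD1 (0.14 ± 0.024 and 1.36 ± 0.024) and the cysteine-making enzyme CTH (0.29 ± 0.081 and 2.93 ± 0.067) followed the same course. KLHL24, an adaptor of a ubiquitin ligase, averaged 13.1 ± 1.22 CPM in the combination and 8.5 ± 0.513 CPM in SHP1705, against 6.56 CPM in MG132 and 6.15 CPM in DMSO. The actin nucleator JMY (0.96 ± 0.088 over MG132) and the focal adhesion scaffold NEDD9 (0.92 ± 0.076) were in this class as well, and NEDD9 stood 0.32 ± 0.073 over SHP1705, which was -0.0038 with library size alone. ANGPTL4, a secreted inhibitor of lipoprotein lipase, was lower after SHP1705 (-0.53 ± 0.078) and fell further, to 4.36 ± 0.0951 CPM in the combination, against 10.8 ± 0.424 CPM in SHP1705 (-1.30 ± 0.092, edgeR adjusted p = 2.66e-10). The metallothionein MT2A averaged 147 ± 4.27 CPM in the combination and 151 ± 12.3 CPM in SHP1705 (-0.042 ± 0.055, edgeR adjusted p = 0.538), against 183 ± 14.1 CPM in MG132 and 207 ± 9.07 CPM in DMSO, and was lower in the combination than in MG132 (-0.31 ± 0.055).

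**Figure D4:**
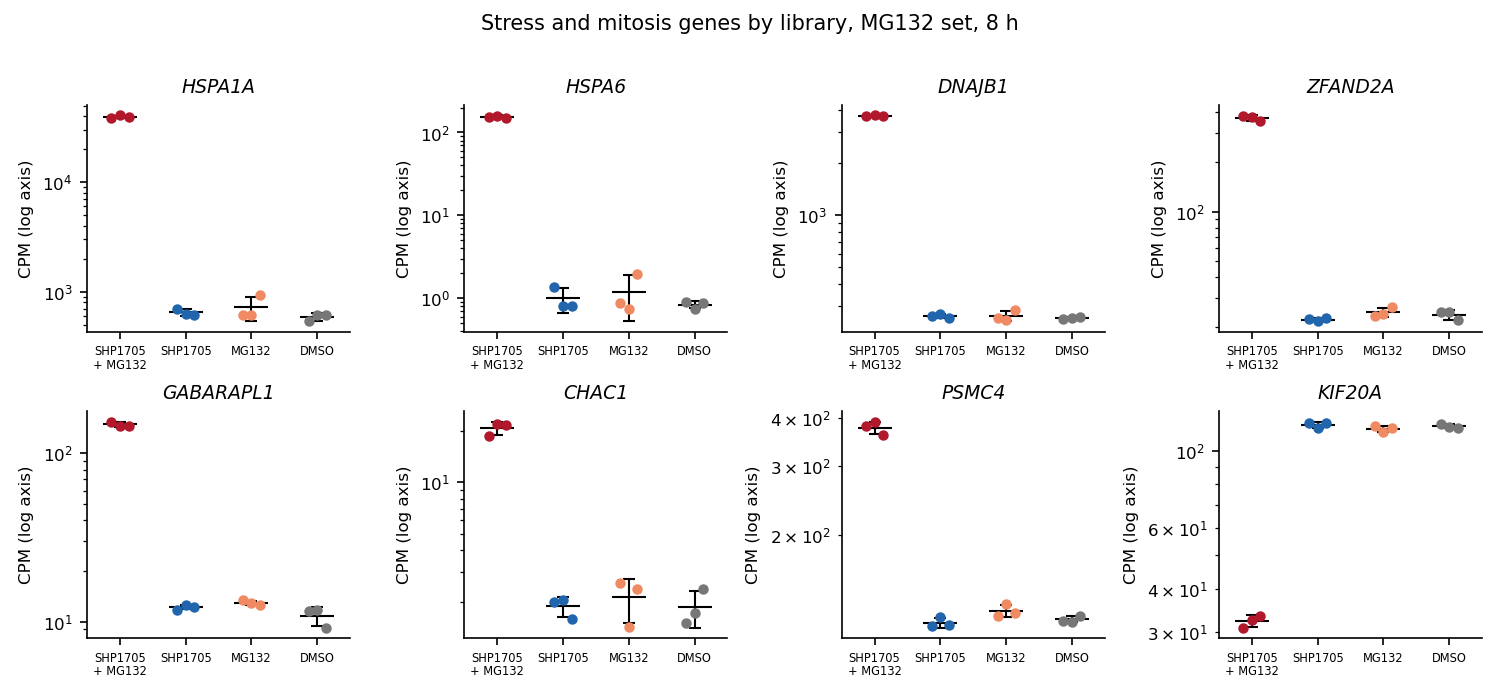
Levels of 8 stress and mitosis genes in each library of the MG132 set, in CPM on a log axis; points are libraries, bars the mean and SD of 3. The 7 stress and proteasome genes are higher in each combination library than in any other library, and KIF20A is lower.

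Chaperone genes of the heat shock response, which the factor HSF1 is known to drive, rose by the largest steps among the named genes. Of 27 heat shock genes, 25 rose and 0 fell against SHP1705, with a median of 1.77 (24 and 1 when scaled by library size alone), while SHP1705 alone had raised 2 and lowered 3. Over all genes, 31.0% were higher and 30.0% lower in the combination than in SHP1705, and SHP1705 alone raised 3.45% and lowered 4.08%. The counts of this list and of the lists below are to be read against these shares. HSPA1A, an inducible HSP70 gene, had 38927, 40611 and 39707 CPM in the combination, 695, 630.4 and 614 CPM in SHP1705, 608, 613 and 926 CPM in MG132 and 533, 615 and 611 CPM in DMSO. The combination stood apart from the other 9 libraries, of which MG132 replicate 3 was the highest, and the log2 fold change over SHP1705 was 5.94 ± 0.13 (edgeR adjusted p = 4.17e-18). HSPA1A and its neighbour HSPA1B (5.61 ± 0.11) are near-identical, as are HSPA6 and HSPA7, so the division of reads within each pair is uncertain. HSPA6, a strictly stress-induced HSP70, had 154, 160.2 and 148 CPM in the combination, 1.38, 0.813 and 0.803 CPM in SHP1705, 0.88, 0.75 and 1.99 CPM in MG132 and 0.891, 0.745 and 0.885 CPM in DMSO (7.25 ± 0.14). DNAJB1, an HSP40 co-chaperone, averaged 3705 ± 22 CPM in the combination and 262 ± 6.55 CPM in SHP1705 (3.82 ± 0.039, edgeR adjusted p = 1.82e-22), the nucleotide exchange factor HSPH1 1612 ± 40.1 and 251 ± 4.9 CPM (2.68 ± 0.029), and HSP90AA1 18340.5 ± 153 and 3036 ± 160.1 CPM (2.59 ± 0.033).

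The core of the heat shock element, read as GAANNTTC on both strands, occurs in 6.87% of the 27305 RefSeq promoter windows and in 11 of the 25 heat shock genes found there. The 250 bases before the start of HSPA1A and HSPA6 are shown because these HSP70 genes are among the most raised, printed 5′ to 3′ on GRCh38.p14, plus strand, with each match in capitals.
HSPA1A (chr6:31815293-31815542): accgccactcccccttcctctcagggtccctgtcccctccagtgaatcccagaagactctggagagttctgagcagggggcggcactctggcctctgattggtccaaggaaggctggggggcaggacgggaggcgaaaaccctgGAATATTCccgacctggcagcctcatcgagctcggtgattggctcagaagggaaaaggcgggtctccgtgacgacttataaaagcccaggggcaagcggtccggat
HSPA6 (chr1:161524290-161524539): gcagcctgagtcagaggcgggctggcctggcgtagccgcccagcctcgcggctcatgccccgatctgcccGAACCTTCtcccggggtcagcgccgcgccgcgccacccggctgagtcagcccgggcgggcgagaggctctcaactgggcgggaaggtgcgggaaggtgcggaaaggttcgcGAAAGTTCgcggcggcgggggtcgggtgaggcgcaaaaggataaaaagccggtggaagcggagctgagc
The match starts 106 bases before the start of HSPA1A, and the matches of HSPA6 start 180 and 69 bases before its start. DNAJB1 has 0 matches in its window, which says nothing of sites elsewhere.

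Genes of protein removal rose with the chaperones. All 34 proteasome subunit genes were higher in the combination than in SHP1705 (background 31.0%), with a median of 0.91 (33 higher and 0 lower when scaled by library size alone). SHP1705 alone had lowered 7 (background 4.08%) and raised 0 (background 3.45%). PSMC4, an ATPase of the regulatory particle, had 380.3, 389.5 and 362 CPM in the combination, 116, 122 and 117 CPM in SHP1705, 124, 132 and 126 CPM in MG132 and 120.1, 119 and 124 CPM in DMSO (1.67 ± 0.035, edgeR adjusted p = 3.53e-18). PSMB5, a catalytic subunit that MG132 binds, averaged 159 ± 5.19 CPM in the combination and 95.5 ± 0.532 CPM in SHP1705 (0.74 ± 0.041). Of 24 ubiquitin, VCP and autophagy genes, 19 rose and 3 fell, with a median of 0.80 (14 and 6 when scaled by library size alone). ZFAND2A, a stress-induced partner of the proteasome on chromosome 7 from 1148850 to 1160196, had 378, 371 and 352 CPM in the combination and 22.4, 21.7 and 22.7 CPM in SHP1705, against 23.4, 24.2 and 26.5 CPM in MG132 and 24.7, 24.8 and 22 CPM in DMSO (4.04 ± 0.051). GABARAPL1, an autophagosome protein, stood 3.61 ± 0.062 above SHP1705 on the log2 scale and the autophagy receptor SQSTM1 1.76 ± 0.028.

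The ATF4 programme, by which cells under stress are known to make amino acids and redox buffers, rose across its list. All 27 genes tested were higher (background 31.0%), with a median of 1.61 (25 higher and 0 lower with library size alone). SHP1705 alone had raised 4 (background 3.45%) and lowered 1 (background 4.08%). CHAC1, a glutathione-degrading enzyme, had 18.7, 22.1 and 21.8 CPM in the combination, 1.99, 2.05 and 1.58 CPM in SHP1705, 2.56, 1.42 and 2.36 CPM in MG132 and 1.5, 1.71 and 2.38 CPM in DMSO. No combination library overlaps with another group (3.47 ± 0.16, edgeR adjusted p = 6e-13). CTH averaged 74.7 ± 2.17 CPM in the combination and 9.78 ± 0.897 CPM in SHP1705, ATF4 itself 382 ± 7.39 and 119.9 ± 5.64 CPM (1.67 ± 0.038), and the phosphatase subunit PPP1R15A, which restores translation, 306 ± 10.1 and 95 ± 3.6 CPM (1.69 ± 0.039). The ATF4 element, read as TGATGNAA on both strands, occurs in 3.67% of promoter windows and in 6 of the 24 list members found there, CHAC1 among them. The 250 bases before its start are printed in the same way because CHAC1 rose most in the list, with the match, which lies on the opposite strand 209 bases before the start, in capitals.
CHAC1 (chr15:40953221-40953470): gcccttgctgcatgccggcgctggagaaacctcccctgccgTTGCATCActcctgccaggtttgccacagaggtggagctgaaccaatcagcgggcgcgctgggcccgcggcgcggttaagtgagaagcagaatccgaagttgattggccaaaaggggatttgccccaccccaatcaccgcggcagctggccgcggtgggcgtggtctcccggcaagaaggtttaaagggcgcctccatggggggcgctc

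Of 22 endoplasmic reticulum chaperone and stress genes, 20 rose and 1 fell, with a median of 0.61 (16 and 3 with library size alone). HERPUD1, which serves in the removal of misfolded proteins of that compartment, averaged 118 ± 2.73 CPM in the combination and 26.3 ± 0.517 CPM in SHP1705 (2.16 ± 0.044), and HSPA5, its main HSP70, 4519 ± 172 and 1186 ± 18.4 CPM (1.93 ± 0.028). Of 25 NRF2 genes, which counter oxidative stress, 17 rose (background 31.0%) and 3 fell (background 30.0%), with a median of 0.60 (15 and 8 with library size alone). SHP1705 alone had raised 7 (background 3.45%) and lowered 2 (background 4.08%). Beside SLC7A11, GCLM and TXNRD1, the sulfiredoxin SRXN1 stood 1.89 ± 0.029 above SHP1705, although SHP1705 alone had left it near DMSO (0.0022 ± 0.029). Of 19 NF-kB and cytokine genes, 15 rose and 0 fell, with a median of 1.17 (14 and 3 with library size alone), among them the apoptosis inhibitor BIRC3 (2.09 ± 0.053) and NFKB2 (1.17 ± 0.045). Of 13 BCL2 family and death receptor genes, 6 rose (background 31.0%) and 4 fell (background 30.0%), with a median near 0 (-0.0017). With library size alone 6 rose and 6 fell, with a median of -0.32. They included the death receptor TNFRSF10A at 0.88 ± 0.049 and the BH3-only gene PMAIP1 at 0.82 ± 0.035.

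**Figure D5:**
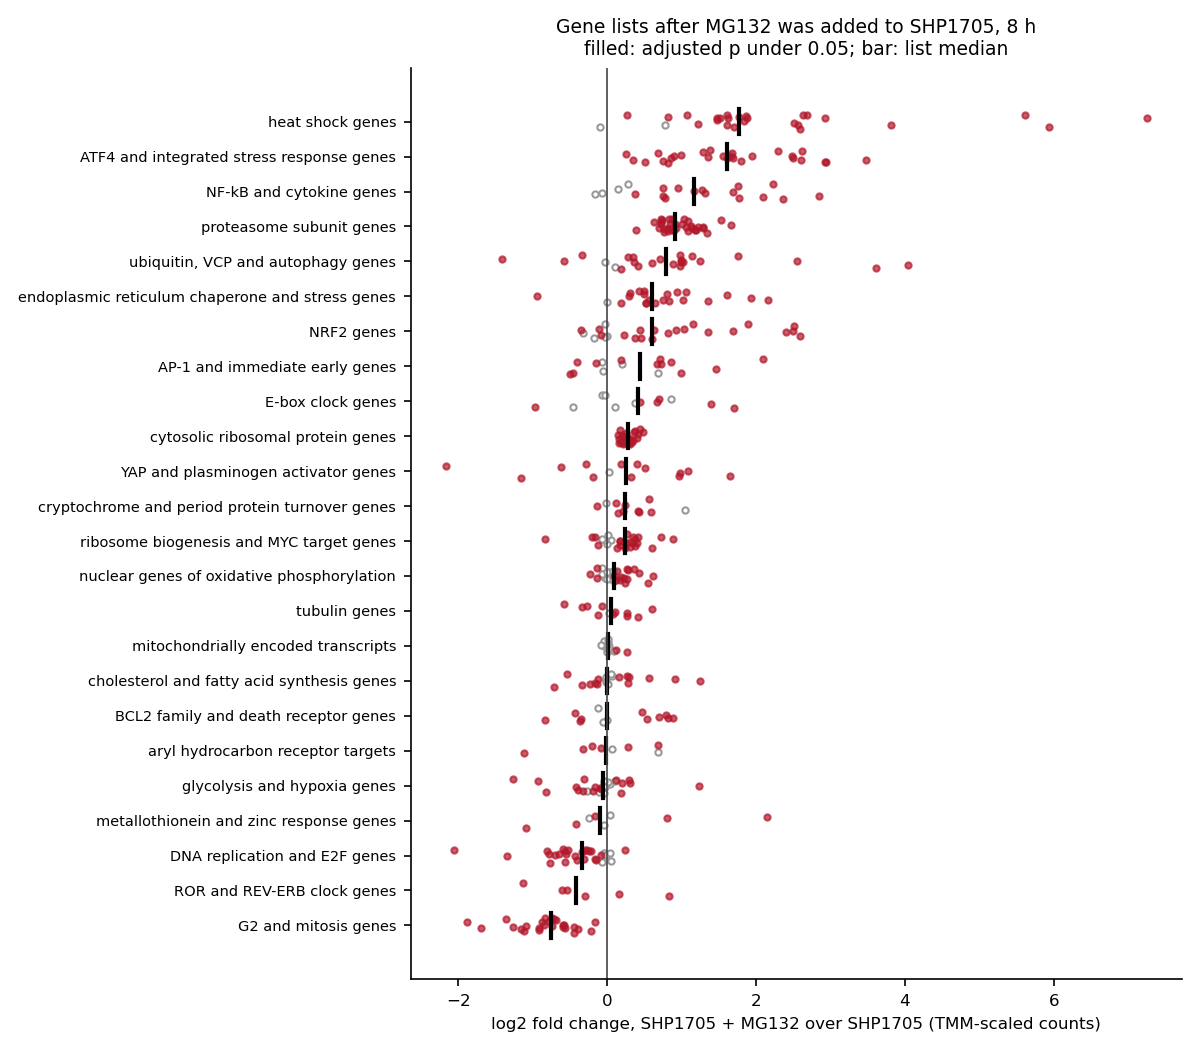
Log2 fold change of the combination over SHP1705 for the genes of 24 lists, sorted by list median (black bar). Each point is a gene, filled where the adjusted p is under 0.05. Library size alone shifts the median of all genes to -0.32, which changes the direction of lists whose median lies near 0. Heat shock and ATF4 genes lie farthest right, G2 and mitosis genes farthest left.

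Cell division genes were lower. All 26 G2 and mitosis genes fell against SHP1705 (background 30.0%), with a median of -0.76 (also 26 with library size alone). SHP1705 alone had raised 1 (background 3.45%) and lowered 1 (background 4.08%). KIF20A, a kinesin of cytokinesis on chromosome 5 from 138179112 to 138187723, had 30.9, 32.5 and 33.4 CPM in the combination, 120.5, 116 and 120.3 CPM in SHP1705, 118, 113 and 116 CPM in MG132 and 119.9, 117 and 117 CPM in DMSO. The combination lay below each other library (-1.88 ± 0.038, edgeR adjusted p = 2e-18). The kinase PLK1 stood at -1.70 ± 0.041 and CDC20, an activator of the anaphase-promoting complex, at -1.35 ± 0.032. Of 29 DNA replication and E2F genes, 23 fell and 1 rose, with a median of -0.34 (28 and 0 with library size alone), led by E2F2 (-2.07 ± 0.11) and the methylation maintenance factor UHRF1 (-1.34 ± 0.041). The cell cycle inhibitor CDKN1A averaged 249 ± 6.43 CPM in the combination and 168 ± 6.65 CPM in SHP1705 (0.57 ± 0.034), and MYC averaged 148 ± 1.79 and 80 ± 1.36 CPM (0.88 ± 0.037).

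Ribosomal protein genes moved by small steps whose direction depends on the scaling. SHP1705 alone lowered 21 of 28 (background 4.08%) and raised 0 (median -0.15), and MG132 alone called 0, with a median of -0.090. With MG132 added 28 of 28 were higher than in SHP1705 (background 31.0%, median 0.28), but 1 was higher and 11 lower (median -0.045) when scaled by library size alone. RPS19 averaged 536 ± 38.4 CPM in the combination and 394 ± 10.9 CPM in SHP1705, against 417 CPM in MG132 and 468 CPM in DMSO. Lists without a common direction included the YAP and plasminogen activator genes, with 8 higher and 5 lower of 14 (5 and 7 with library size alone), from the matricellular gene CCN1 (1.65 ± 0.026) to PLAU and PLAT (-1.15 ± 0.039), and the glycolysis and hypoxia genes, with 6 higher and 11 lower of 28 (1 and 24 with library size alone), from the vasoactive peptide gene ADM (1.23 ± 0.047) to the glucose transporter SLC2A1 (-0.93 ± 0.025). Other genes among the 10 that fell most were TRERF1 (9.86 ± 0.81 CPM in the combination and 78.2 ± 4.77 CPM in SHP1705, -2.99 ± 0.059), the caveolar protein gene CAVIN2 (-2.38 ± 0.062), the adhesion gene TNS4 (-2.32 ± 0.062), the Notch-modifying enzyme LFNG (-2.24 ± 0.085) and the BMP antagonist NOG (-2.21 ± 0.055).

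The addition of MG132 was set beside that of carfilzomib, a proteasome inhibitor of another class, at 10 nM in SHP1705-treated cells after 24 h. Drug, dose, time and library set all differ, so the values stand side by side and no cause of a difference can be told. Carfilzomib added to SHP1705 called 3912 of 16183 genes (24.2%), 1909 higher (11.8%) and 2003 lower (12.4%), and the 2 additions differed in 7185 of 17793 genes (40.4%). Proteasome subunits were higher in both, 34 of 34 each, with medians of 0.91 after MG132 and 0.85 after carfilzomib. PSMC4 stood 1.67 ± 0.035 over SHP1705 with MG132 and 1.58 ± 0.05 with carfilzomib, a difference of 0.10 ± 0.062 (edgeR adjusted p = 0.224). Heat shock genes had medians of 1.80 with MG132 and 0.15 with carfilzomib, and ATF4 genes 1.58 and -0.16, with the difference positive in 25 of 26 and 26 of 26 genes tested (list medians over those genes). DNAJB1 stood 3.82 ± 0.039 over SHP1705 with MG132 and -0.24 ± 0.044 with carfilzomib. G2 and mitosis genes had medians of -0.76 with MG132 and -0.26 with carfilzomib, which lowered 19 of 26. Among clock genes, CRY1 stood 0.44 ± 0.062 over SHP1705 with MG132 and 1.10 ± 0.10 with carfilzomib, a difference of -0.65 ± 0.11 (edgeR adjusted p = 2.59e-05). NR1D2 was higher with MG132 (0.69 ± 0.072) and lower with carfilzomib (-0.42 ± 0.082), a difference of 1.11 ± 0.12 (edgeR adjusted p = 2.76e-09). PER3 was called in neither addition, at -0.063 ± 0.11 with MG132 and -0.29 ± 0.26 with carfilzomib, and ARNTL, lower with MG132 (-0.54 ± 0.085), was not called with carfilzomib (0.29 ± 0.11, edgeR adjusted p = 0.0544). CRY2 was higher in both additions (1.70 ± 0.10 with MG132 and 0.56 ± 0.15 with carfilzomib, difference 1.15 ± 0.18, edgeR adjusted p = 6.46e-06), NPAS2 was lower in both (-1.13 ± 0.041 and -0.30 ± 0.059) and CYP1B1 was lower in both (-1.12 ± 0.051 and -0.29 ± 0.052). PLAU and PDE7B, both lower with MG132, were not called with carfilzomib (0.071 ± 0.043 and 0.072 ± 0.082), and the differences were -2.24 ± 0.051 and -3.46 ± 0.14.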

How the data were processed

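The authors deposited raw read counts per gene, 1 table for each set of 12 libraries. Per the submitters' processing notes, Trimmomatic, FastQC, HISAT2, featureCounts and the build hg38 were used. Because versions, annotation release and strand setting are details not given in the sources used here, overlapping genes may share reads that no value here separates. The MG132 set at 8 h and the carfilzomib set at 24 h were analysed, the carfilzomib set at 8 h was not used here, and 0 columns were left unassigned.

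Groups came from the labels. All 12 libraries of a set entered 1 fit of 4 groups in edgeR 4.0.16 (limma 3.58.1, R 4.3.3), after filterByExpr and TMM scaling, with the quasi-likelihood test, Benjamini-Hochberg adjustment over all genes of a contrast and a threshold of 0.05. Log2 fold changes use a prior count of 0.125 and are followed by standard errors. These were derived as the absolute log2 fold change over the square root of the quasi-likelihood F statistic, and are approximate. CPM are counts over the TMM-scaled library size, in the usual unit, and libraries held 34191153 to 39251609 counts. Differences between sets came from 1 fit of both tables. The labels do not tie replicates to separate cultures, so p-values reflect the spread between libraries only, which may be technical. No 2 libraries were identical. Over 18 pairs of libraries with the same replicate number in different groups of the MG132 set, deviations from group means correlated at -0.20 to 0.18. The numbers were therefore not taken to pair samples. Some libraries with different numbers correlated more strongly. SHP1705 replicate 1 stood at 0.366 with MG132 replicate 2 and at -0.292 with MG132 replicate 3. Libraries of different groups may thus share a structure that the fit leaves out, and its source was not tested.

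The members, the 32 gene lists (555 symbols, 518 tested) and the naming rule were chosen with earlier results of these data known. The rule names the clock genes, up to 10 highest and 10 lowest called genes that average 5 CPM or more without overlap of the groups, the 4 members of each list with the smallest p, the 10 largest SHP1705 effects of each class, up to 10 genes that differ most between sets and a short set of stress and marker genes, 174 in all. An effect of SHP1705 was called kept or turned around where the combination against MG132 passed the threshold in the same or the opposite direction. Promoter windows and positions come from RefSeq (GRCh38.p14) by symbol, which may differ from the annotation used for counting. The alternatives comprised relative log expression factors, DESeq2 1.42.0, no filter, the replicate block, only the groups compared, and each library left out. Added after seeing the data were library size without factors and 2 fits without 4 libraries chosen by POSTN. On simulated data for the combination against SHP1705 (16172 genes), 35, 43, 46 and 50 of 50 genes were recovered at 1.25-fold, 1.5-fold, 2-fold and 4-fold, with 3.87% of 181 calls false. For the interaction (15997 genes), 22, 38, 42 and 47 of 50 were recovered at these folds, with 5.1% of 157 calls false. Few genes were changed in the simulations, as many raised as lowered. They therefore do not test the scaling of data in which most genes move. Some named genes are not reported here. Figures were drawn with matplotlib 3.10.9.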

Additional observations from a re-analysis of the deposited data

Results flagged for a closer look

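The effect of MG132 differed between cells with and without SHP1705 in 8108 genes by the edgeR interaction test (48.9% of those tested).

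The addition of MG132 at 8 h differed from the addition of carfilzomib at 24 h in 7185 genes, a test of the difference itself across sets that differ in drug, dose and time. The log2 difference, MG132 minus carfilzomib, was 5.18 for HSPA1A, 5.10 for HSPA1B, 4.07 for DNAJB1, 3.56 for HSPA6 and 2.88 for HSPH1 among chaperones. It was 2.93 for JDP2, a repressor of AP-1 sites, 2.92 for ZFAND2A and 2.90 for SLC1A4, a transporter of neutral amino acids. It was -3.46 for PDE7B and -2.98 for TRERF1, neither of which was called with carfilzomib added to SHP1705 (0.072 and -0.0088).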

How the results depend on the processing

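The 10121 genes called in the combination against SHP1705 were 10125 with relative log expression factors, 10038 without a filter, 9748 by DESeq2, 9801 with only the groups compared, 11179 with library size alone, and 9561 to 9637 with 1 library left out. The fits without 4 libraries chosen by POSTN left a lone SHP1705 library or a lone combination library, so no count is given for them here. The replicate block gave 10081 there, 8053 for the interaction, 1175 for SHP1705 against DMSO, 9499 for the combination against MG132 and 7187 for the difference between sets, and 1 of 18 same-number pairs correlated above 0.1. For MG132 against DMSO, where 0 genes were called, the block gave 3, no filter 303, DESeq2 75, only the groups compared 22, the fit without combination replicates 2 and 3, SHP1705 replicate 1 and MG132 replicate 3 gave 7, and leaving out 1 library 0 to 67, 67 without MG132 replicate 2. SHP1705 against DMSO fell to 150 without SHP1705 replicates 2 and 3 and MG132 replicates 1 and 3, and to 619 to 892 with 1 library left out. In that POSTN fit, where the lone SHP1705 library and the lone MG132 library are assumed to vary like the rest, raised genes divided into 21 kept, 24 turned around and 13 not called, and lowered genes into 32, 31 and 29. The other POSTN fit gave 118 lowered genes kept.

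With 1 library left out, raised genes kept numbered 118 to 248, turned around 126 to 258 and not called 43 to 129, and lowered genes 98 to 202, 164 to 373 and 58 to 204, with the lower ends in fits that call fewer SHP1705 effects. As shares of the called genes these were 37.2% to 44.1%, 37.5% to 43.9% and 13.8% to 23.5% of raised genes, and 25% to 30.6%, 42.7% to 55.3% and 18.1% to 30.2% of lowered genes. With library size alone 529 raised genes turned around, 322 lowered genes were kept and 62 turned around. The combination against MG132 gave 8829 to 9274, the interaction 7667 to 7949, carfilzomib added to SHP1705 3038 to 3251, SHP1705 against DMSO in that set 419 to 687 (1171 with only the groups compared) and the difference between sets 6730 to 6957.

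For 174 named genes there were 2434 values under alternatives. Of these, 2358 either kept both direction and call or were called in neither fit, whatever their direction. With the direction kept, 50 lost and 16 gained the call. The direction changed in 10 that were called in the main fit, the alternative or both. All 10 arose with library size alone: ARNTL2 at -0.16, ATP5F1B at -0.15, ATP8 at -0.23, CD44 at -0.054, CLDN4 at -0.010, ND3 at -0.051, ND4L at -0.20, NEDD9 at -0.0038, RPL4 at -0.041 and TIPARP at -0.044. The cause of these changes was not tested beyond the common shift of -0.32. POSTN was not called by DESeq2 in the combination against SHP1705 (adjusted p = 0.0636).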

Other observations

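Single genes of further lists were called when MG132 was added to SHP1705. Over all genes, 31.0% were higher and 30.0% lower, against which the counts of these lists are to be read. The cholesterol synthesis gene HMGCS1 averaged 73.6 ± 3.82 CPM in the combination and 31.1 ± 0.822 CPM in SHP1705 (1.24 ± 0.048, edgeR adjusted p = 3.05e-14), while the 20 cholesterol and fatty acid synthesis genes divided into 7 higher and 7 lower (3 and 14 with library size alone). Among metallothionein and zinc response genes, the factor MTF1 stood at 0.80 ± 0.06 and MT1E, one of its known targets, at -1.10 ± 0.049. Of 12 tubulin genes 6 were higher and 5 lower (1 and 8 with library size alone), with TUBB, the most abundant transcript of the libraries without the combination, at -0.34 ± 0.021. The immediate early phosphatase DUSP1 averaged 101 ± 2.65 CPM in the combination and 23.6 ± 1.89 CPM in SHP1705 (2.09 ± 0.056), and 8 of 16 AP-1 and immediate early genes rose and 4 fell (6 and 7 with library size alone). Luminal keratin KRT19 averaged 266 ± 11.8 and 517 ± 14 CPM (-0.96 ± 0.031), and ERBB2 38.4 ± 1.42 and 63.3 ± 3.31 CPM (-0.72 ± 0.046).

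The cadherin gene CDH2 had 6.53, 16.7 and 15.7 CPM in the combination, 1.09, 2.47 and 2.95 CPM in SHP1705, 3.12, 0.562 and 11.7 CPM in MG132 and 1.55, 1.21 and 0.995 CPM in DMSO. The 3 combination libraries and MG132 replicate 3 were the 4 highest, as they were for POSTN. Its part in the other results was not tested beyond leaving libraries out.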
